A study of Mus musculus with 5 samples.

Results

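The miRNAs described here are both arms of miR-155, miR-146a, miR-146b, miR-132 and miR-212, which are known from immune cells as miRNAs switched on by inflammatory signals. Every mouse probe that carries one of these 5 names with an arm suffix was taken, which gave 10 arms of the 1900 miRNAs on the array. The rule uses names and no values, although the group was chosen with earlier results of these data known. miRNA levels were profiled in back skin of female mice at the telogen (resting) stage of the hair cycle. The samples were unwounded skin of 2-year-old mice (aged D0), skin of 2-year-old mice collected 3, 5 and 7 days after a full-thickness wound made with a 3 mm punch (D3, D5 and D7), and unwounded skin of 8-week-old mice (young D0). The labels name no strain and no treatment other than the wound, and they do not say whether a sample was 1 animal or a pool. Each of these 5 conditions has 1 single-colour array, so there is no spread between animals, no test was possible and no p-value is given.

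A miRNA pairs with target mRNAs mainly through its seed, bases 2 to 8 from its 5′ end, so that miRNAs with the same seed are predicted to share targets. Toll-like receptor and NF-κB signalling raises transcription of the miR-155 host gene and of miR-146a in myeloid cells. miR-155 is best known for promoting inflammatory responses, whereas miR-146a and miR-146b act as brakes on the same pathway by repressing the signalling proteins Traf6 and Irak1. miR-132 and miR-212 are made from 1 transcript that CREB activates, and miR-132 is known to help skin wounds pass from inflammation to growth of the epidermis.

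The mature sequences of the 5 arms that are usually the more abundant are shown because they tell which of the probes read close relatives. The seed is in capitals, and the prefix mmu, for mouse, is left out of the names elsewhere. All 10 arms matched RefSeq by name and had the sequence that the array lists, and coordinates are those of RefSeq on GRCm38.p6.
mmu-miR-155-5p: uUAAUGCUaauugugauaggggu
mmu-miR-146a-5p: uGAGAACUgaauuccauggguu
mmu-miR-146b-5p: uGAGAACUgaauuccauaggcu
mmu-miR-132-3p: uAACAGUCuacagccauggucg
mmu-miR-212-3p: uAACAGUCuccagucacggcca
Grouped by seed, miR-146a-5p and miR-146b-5p form a pair, miR-132-3p and miR-212-3p form another, and miR-155-5p shares its seed with no other miRNA on the array. No miRNA outside these 5 carries any of the 3 seeds. miR-146a-5p and miR-146b-5p have 20 of 22 bases in common (90.9%), and the differences are G18A and U21C, with the miR-146a base first and positions counted from 1 at the 5′ end. With the differing bases in capitals instead of the seed, the pair reads as follows.
miR-146a-5p: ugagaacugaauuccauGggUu
miR-146b-5p: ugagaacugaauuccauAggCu
miR-132-3p and miR-212-3p have 17 of 22 bases in common (77.3%) and differ at A10C, C14U, U17C, U20C and G22A, with the miR-132 base first.

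The genes of the miR-146 pair lie on different chromosomes. miR-146a-5p is at chr11:43374435-43374456 on the minus strand, where the gene table lists no overlapping gene, and miR-146b-5p is at chr19:46342790-46342811 on the plus strand, inside the lncRNA gene Gm36493. miR-132-3p, at chr11:75173723-75173744, and miR-212-3p, at chr11:75173443-75173464, are both on the plus strand, and 203 bases separate their hairpins. miR-155-5p is at chr16:84714143-84714165 on the plus strand, inside the lncRNA gene Mir155hg, its known host transcript.

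Whether a miRNA gave signal was judged on each array against 4 spots without a probe. A miRNA was counted as detected when the mean scanned intensity of its 2 spots exceeded the 95th percentile of these empty spots, a level between 58.3 (D3) and 107 (young D0), and as bright when it exceeded 2 times that level. Between 589 (aged D0) and 1768 (D3) miRNAs were detected and between 210 and 342 were bright. On D3, D5 and D7 the median miRNA itself lay above the detection level, so that detection near the level says little there. The 7 skin epithelium markers on the list, miR-203-3p, miR-205-5p and the miR-200 family, were detected on every array, as was the skeletal muscle list of 3, so the labelled tissue has its markers.

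In these arrays only miR-146a-5p and miR-146b-5p, of the 10 arms, were bright in all 5 conditions. miR-155-5p was bright in 4 conditions and below the bright level at aged D0, and miR-132-3p was bright on D3 and D5. miR-212-3p was never bright and was not detected in young skin. Its 2 spots averaged 108 in unwounded aged skin, 70.7, 81.3 and 113 in the D3, D5 and D7 wounds, and 90.0 in young skin. The other 5 arms, miR-132-5p, miR-146a-3p, miR-146b-3p, miR-155-3p and miR-212-5p, were not detected in aged or young unwounded skin and stayed between 0.651 and 1.17 times the detection level on all arrays. These arms sat at the level of spots without a probe in every condition and miR-212-3p sat close to it. They are included in the counts of arms below, where their ratios describe signal at or near background.

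**Figure D1:**
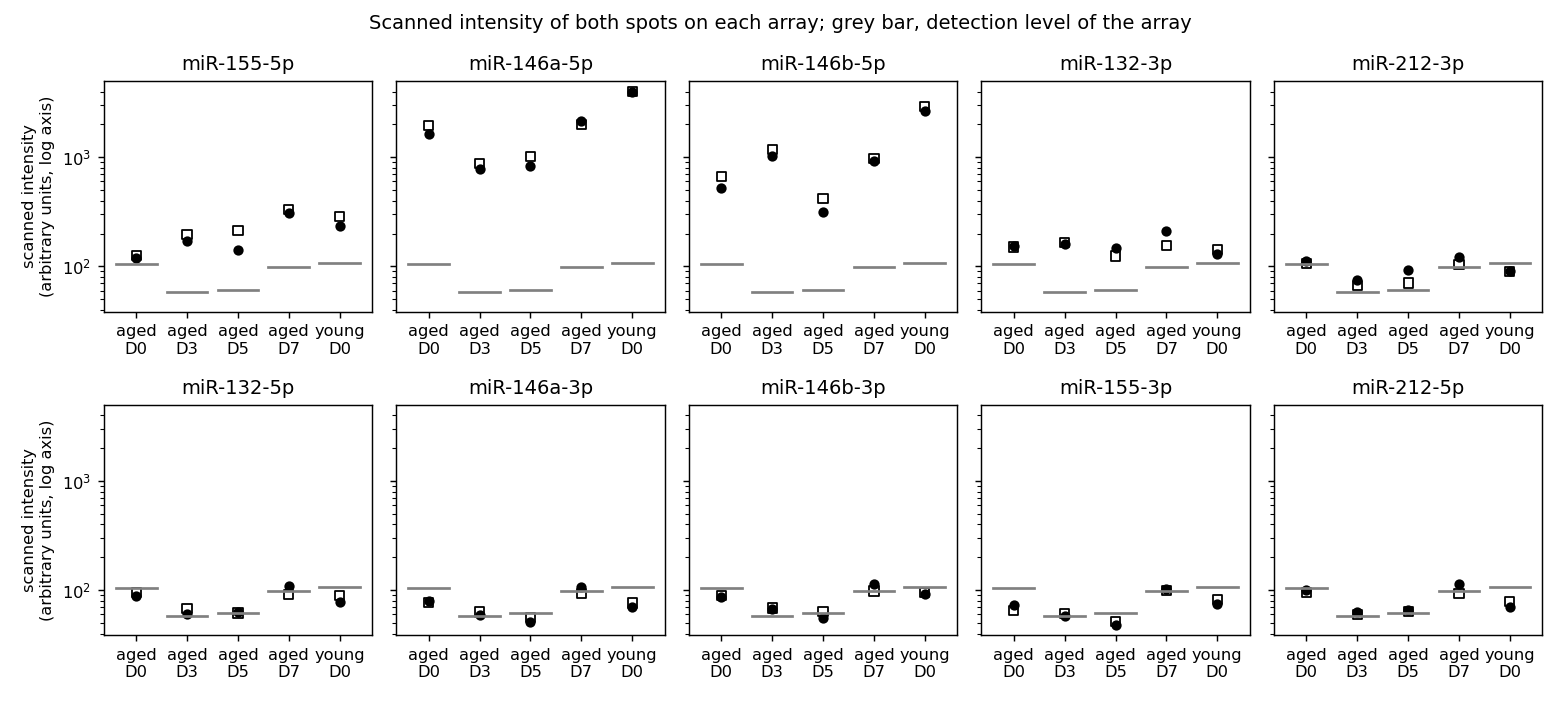
Scanned intensity (arbitrary units, log axis) of each of the 2 spots, as a filled circle and an open square, for the 10 arms on the 5 arrays, with the detection level of each array as a grey bar. miR-146a-5p and miR-146b-5p lie far above the bars on every array, miR-155-5p and miR-132-3p lie modestly above them, and the other 6 arms lie on or next to the bars.

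Ratios between conditions were formed after background correction and quantile normalization, which gives all arrays the same distribution of values. At a 2-fold threshold, 0 of the 10 arms that were detected on D3 or aged D0 were higher on D3 and 0 were lower, beside 3.44% higher and 2.65% lower among all 1772 miRNAs detected. On D5, 1 of 7 arms was at least 2-fold higher (miR-155-5p) and 0 were lower, beside 2.87% and 2.41% of 1079 miRNAs. On D7, 1 of 10 was higher (miR-155-5p again) and 0 were lower, beside 2.56% and 1.79% of 1565. Most miRNAs in those totals were at the background, so the shares were also taken over miRNAs bright on at least 1 of the arrays compared. On D3, 17.7% of these were higher and 12.8% lower, with 0 of 4 bright arms among either. On D5, 10.5% were higher and 8.45% lower, and 1 of 4 bright arms was higher. On D7 the shares were 12.9% and 8.09%, and 1 of 3 bright arms was higher. With 6 of the 10 arms at or near background and at most 1 arm past the threshold, these counts are no result about the arms as a group, for or against induction. Apart from a value of 0.984 for miR-155-5p on D3 under scaling to spike controls, those of the 5 main arms above their unwounded level under all settings were miR-155-5p at the 3 wound times and miR-146b-5p on D3.

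For miR-155-5p the scanned intensity averaged 123 at aged D0 (spots 120 and 126), 184 in the D3 wound (170 and 197), 177 at D5 (142 and 212.4), 321 at D7 (310 and 333) and 261 in young skin (236 and 286). Relative to the detection level of the same array these were 1.16 times for aged D0, 3.15, 2.90 and 3.24 times for the wounds in order of time, and 2.44 times for young skin. Unwounded aged skin was the lowest array on either scale and barely above empty spots, while the 3 wounds were similar to each other once set against their own background. After normalization the values were 122, 225, 245, 271 and 161 in the same order.

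Divided by aged D0, the D3 wound gave a miR-155-5p ratio of 1.84 (spots 1.77 and 1.92). The D5 wound gave 2.01 (1.73 and 2.33), and the D7 wound gave 2.22 (2.23 and 2.21). The D5 value is just past the 2-fold threshold with 1 spot on each side of it, and the spots of D5 span those of D3 and D7, so the wounds cannot be put in an order. Each spot of each wound was above its unwounded counterpart. Over 14 alternative settings the D5 ratio lay between 1.12 and 3.55 and the D7 ratio between 1.55 and 4.15, all above 1, and the D3 ratio was above 1 in 13 and 0.984 when arrays were scaled to spike calibration controls. The lower ends come from other scalings and the upper ends from subtracting the empty spots. Against the median ratio of the miRNAs bright on both arrays, miR-155-5p stood 2.36 times as high at D3, 2.16 times at D5 and 2.48 times at D7. That median was itself 0.781, 0.932 and 0.895, so a dim miRNA without any change also stands above it. The background-level arm miR-155-3p stood 1.36, 1.01 and 1.27 times as high.

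Some miRNAs bright on both arrays had larger ratios than miR-155-5p, which is not among them because it was not bright at aged D0. This was so for 33 of 207 bright miRNAs at D3, 16 of 204 at D5 and 13 of 203 at D7. Markers of leukocytes moved in the same direction. Of 5 leukocyte miRNAs, 3 on D3, 2 on D5 and 3 on D7 were at least 2-fold higher than at aged D0 and 0 were lower. Among miRNAs bright on at least 1 of the arrays compared, 17.7%, 10.5% and 12.9% were higher. Their scanned intensities, not normalized, summed to 1201 in unwounded aged skin and to 4369, 2658 and 4699 in the wounds in order of time. miR-223-3p, a granulocyte and monocyte miRNA, had ratios of 15.3, 8.76 and 8.14 on D3, D5 and D7, and miR-142a-5p, found across blood cells, had 6.11, 3.28 and 4.39. The other arm, miR-142a-3p, was not detected at aged D0 and was at least 2.39, 1.30 and 3.75 times as high. Its scanned signal on D5 was 86.9 against 87.6 at aged D0. miR-150-5p, abundant in mature lymphocytes, had 0.743, 1.48 and 1.08, and miR-342-3p had 0.982, 1.14 and 1.18. The higher markers were thus the myeloid and pan-leukocyte ones. The part of leukocyte numbers in the miR-155-5p values was not tested, and in whole skin fewer cells of a type and less RNA per cell cannot be told apart.

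**Figure D2:**
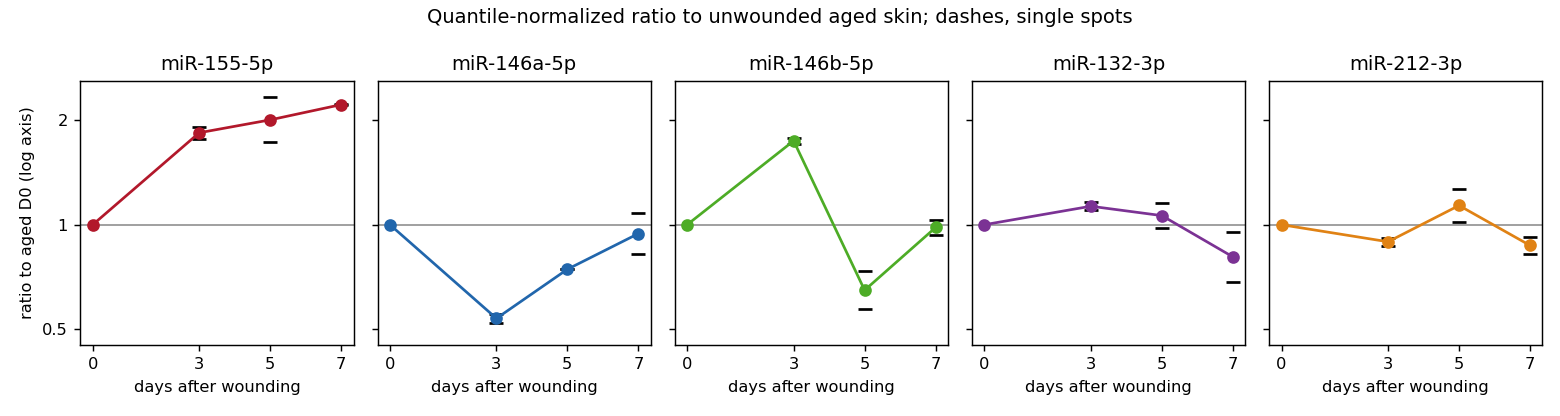
Quantile-normalized ratio to unwounded aged skin (log axis) against days after wounding for the 5 arms, with the mean of the 2 spots as circles joined by lines and the single spots as dashes, from 1 array at each time. miR-155-5p stays near 2 at all times (under scaling to spike controls it is 0.984 on D3), miR-146a-5p is lowest on D3, miR-146b-5p is highest on D3 and lowest on D5, and miR-132-3p and miR-212-3p, which are dim, stay near 1 and change side of 1 with the scaling.

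The miR-146 pair, which shares a seed, was read on the same arrays. For miR-146a-5p the scanned intensity averaged 1810 at aged D0 (spots 1650 and 1969), 829 in the D3 wound (778 and 880), 925 at D5 (831 and 1019), 2071 at D7 (2135 and 2007) and 3966 in young skin (3930 and 4003). miR-146b-5p had 596 (528 and 664), 1102 (1032 and 1173), 369 (318 and 421), 951 (931 and 971) and 2785 (2638 and 2932) in the same order. From aged D0 to D3 the scanned signal of miR-146a-5p thus fell on both spots while that of miR-146b-5p rose on both, before any normalization. On D5 both were below their aged D0 signal. Skin epithelium markers were also low in the wounds, with 5 of 7 at least 2-fold lower and 1 higher on D3, 3 lower on D5 and 0 on D7. Their median normalized ratios were 0.428, 0.536 and 0.571 in order of time. Their scanned intensities, not normalized, summed to 38489 in unwounded aged skin and to 16244, 17340 and 27476 in the wounds in order of time. Such sums include differences in brightness between arrays and weigh the brightest markers most. At aged D0 miR-205-5p alone scanned at 19978. Its scanned ratio on D5 was 0.581, but its 2 spots gave 0.841 and 1.19 after normalization. Of the 3 skeletal muscle markers 3, 1 and 1 were at least 2-fold lower on D3, D5 and D7, and of the 3 red blood cell markers 1, 1 and 2. Among miRNAs bright on at least 1 of the arrays compared, 12.8%, 8.45% and 8.09% were lower. The part of skin epithelium, muscle and red blood cells in the values of the miR-146 pair was not tested.

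After normalization miR-146a-5p on D3 was 0.536 times its aged D0 value (spots 0.551 and 0.522), and the ratio was below 1 in all 14 alternative settings, between 0.298 and 0.637. miR-146b-5p on D3 was 1.75 times its aged D0 value (spots 1.78 and 1.71), and the ratio was above 1 in all 14, between 1.21 and 2.58. Neither passed 2-fold by itself, but they moved apart. The ratio of miR-146b-5p divided by that of miR-146a-5p was 3.26 on D3 (spots 3.23 and 3.28), between 3.10 and 4.05 over 12 alternatives. This quotient does not change when an array is multiplied by a constant, so it does not rest on which reference the arrays were scaled to. For the same reason, no normalization and the scalings of whole arrays give identical quotients. They are not separate alternatives among the 12, here or for the quotients below. miR-155-5p also moved away from miR-146a-5p, with a quotient of 3.44 on D3, 2.70 at D5 and 2.36 at D7, and at least 1.97 under the 12 alternatives. For a log2 ratio averaged over 2 spots, the SD estimated from the differences between repeat spots of bright miRNAs was 0.14 on D3. It describes the array and not the animals.

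By D5 and D7 the pair no longer moved apart to that extent. On D5 miR-146a-5p was at 0.744 (spots 0.743 and 0.744) and miR-146b-5p at 0.647 (0.570 and 0.735), both below 1 under all 14 alternatives, and the quotient was 0.870 but 1.23 without normalization or when whole arrays were scaled and 1.05 after cyclic loess. On D7 miR-146a-5p was at 0.943 (1.08 and 0.824) and miR-146b-5p at 0.982 (1.03 and 0.932), with spots on either side of 1, and the settings put miR-146a-5p above 1 in 5 of 14 and miR-146b-5p in 7 of 14. The D7 quotient was 1.04 (spots 0.959 and 1.13), between 1.04 and 1.38 over 12 alternatives. Ordered by normalized value, miR-146a-5p was lowest on D3 (1075), then D5 (1490), and young D0 (1818), D7 (1890) and aged D0 (2004) lay close together, with D7 spots that spanned the other two. miR-146b-5p was lowest on D5 (530), D7 (805) and aged D0 (820) were not apart, and young D0 (1200) and D3 (1433) were highest.

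**Figure D3:**
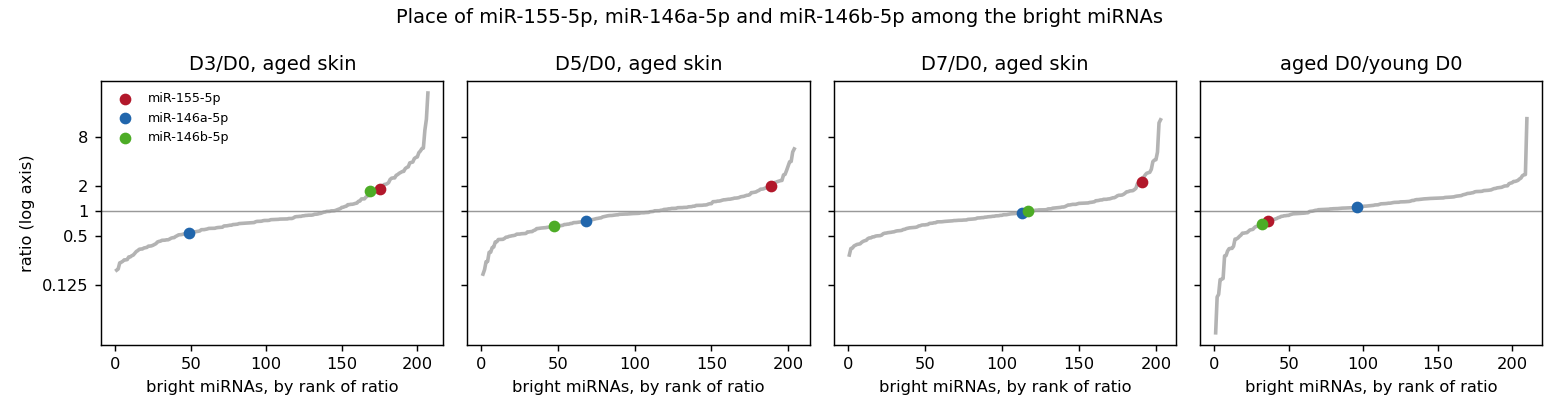
Ratio (log axis) of each miRNA bright on both arrays, ranked from lowest to highest as a grey line, with miR-155-5p, miR-146a-5p and miR-146b-5p as coloured points, for the 3 wound times over aged D0 and for aged over young D0. miR-155-5p was not bright at aged D0 and is set at the place its ratio would take. On D3 miR-146a-5p lies in the lower part and miR-146b-5p in the upper part of the line, while on D5 and D7 they lie close together; the side of 1 on which miR-146a-5p falls in aged over young skin changes with the scaling.

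Probe sequences are not given. For the D3 contrast, the GC content of the listed mature sequences and the place of the spots were compared. On that array, miRNAs with a GC content at or below the 25th percentile of the bright ones had a median ratio of 0.656 (54 miRNAs) and those at or above the 75th percentile 1.53 (52 miRNAs). miR-146a-5p and miR-146b-5p have the same GC content, 40.9%, at which the median ratio of the 64 miRNAs within 5 percentage points was 0.674. miR-146a-5p was thus somewhat below and miR-146b-5p well above their GC neighbours. miR-155-5p, with 34.8% GC, was also above its neighbours, whose median was 0.763 over 21 miRNAs. The spots of the pair lie 2 rows apart in the same column in both spot sets. How far the probe of each miR-146 takes up its near-identical relative was not tested.

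The miRNAs that followed each of the pair across the 5 arrays were different. For each arm, the centred log2 values of the 498 miRNAs detected on all arrays were ranked by root mean square difference. The nearest to miR-146a-5p were miR-30a-5p (0.10), miR-99a-5p (0.13) and let-7f-5p (0.13), all abundant miRNAs of many tissues, and miR-146b-5p came at rank 410. The nearest to miR-146b-5p were miR-511-3p (0.23), miR-3154 (0.29) and miR-3077-5p (0.30), with miR-146a-5p at rank 320. The nearest to miR-155-5p were miR-6540-5p (0.067), miR-6236 (0.20) and miR-706 (0.22). At aged D0, where the detection level was 105, miR-6540-5p scanned at 106 and miR-3154 at 117, so both were close to background there. miR-511, made from an intron of the mannose receptor gene Mrc1, is a macrophage miRNA. miR-511-3p scanned at 144 at aged D0 and 94.7 on D5, below the bright levels of 211 and 122. Its distance of 0.23 was larger than that of the nearest miRNA to any other arm ranked. The nearest to miR-132-3p were miR-6945-5p (0.089), miR-93-5p (0.12) and miR-3084-3p (0.14). These distances describe 5 arrays only.

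miR-132-3p showed little movement after wounding. Its scanned intensity averaged 152 at aged D0 (spots 154 and 150), 164 in the D3 wound (161 and 166), 136 at D5 (147 and 124.5), 184 at D7 (211.9 and 155.3) and 136 in young skin (130 and 143). The array means spanned less than the gap between the spots of D7. Its normalized ratios to unwounded aged skin were 1.13, 1.06 and 0.808 in order of time, and each fell on the other side of 1 under some scalings, with 12, 10 and 4 of 14 alternatives above 1. miR-212-3p, which comes from the same transcript, had ratios of 0.893, 1.14 and 0.871 at background signal, and its D5 and D7 ratios also changed side. No change of this pair could be seen at this signal, which is not evidence that there was none.

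**Figure D4:**
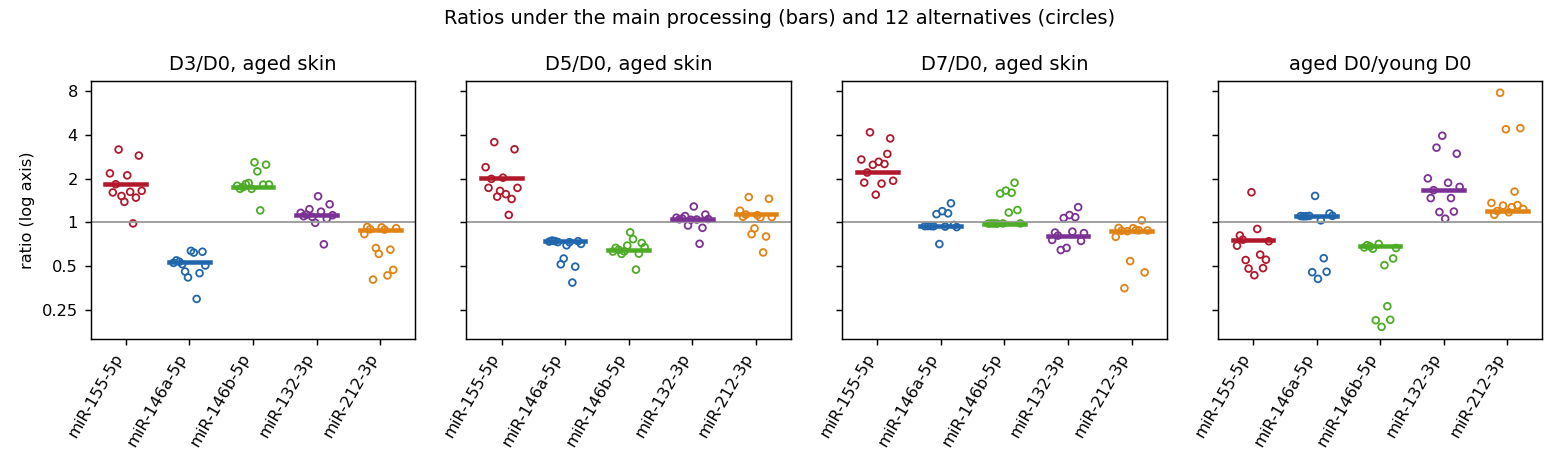
Ratio (log axis) of the 5 arms under the setting used in the text (bars) and under 12 alternative settings of background correction, normalization and values (circles), for the 3 wound times over aged D0 and aged over young D0. On D3 the circles of miR-146a-5p all lie below 1 and those of miR-146b-5p all above 1, those of miR-155-5p lie above 1 except for 0.984, and in aged over young skin those of miR-146a-5p and miR-155-5p fall on both sides of 1.

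Other miRNAs reported to respond to Toll-like receptors were read from a list of 8. At each wound time 1 of them, miR-21a-5p, was at least 2-fold higher and 0 were lower, with ratios of 5.70, 3.95 and 5.17 in order of time. This miRNA is also abundant in keratinocytes and fibroblasts. miR-221-3p, which targets Kit and cell cycle inhibitors, had 1.39, 0.866 and 0.745, and miR-222-3p, from the same cluster and with the same seed, had 1.19, 0.785 and 0.625. miR-125a-5p had 0.537, 1.16 and 0.765, and the other 4, miR-9-5p, miR-147-3p, miR-187-3p and miR-455-5p, were bright on no array. The median ratio of the detected members was 1.05, 0.866 and 0.931, beside 0.999, 1.03 and 1.02 over all detected miRNAs. The share of all detected miRNAs at least 2-fold higher was 3.44% on D3, 2.87% at D5 and 2.56% at D7, and with 4 members that were never bright the counts say nothing about the list as a whole. In aged over young skin 0 of its 6 detected members were past 2-fold in either direction, with a median of 1.23 beside 0.990 over all detected miRNAs and 0.584 for miR-21a-5p.

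Unwounded aged and young skin were compared to see whether these miRNAs differ before injury. At 2-fold, 0 of the 5 arms detected in aged or young skin were higher in aged skin and 0 were lower, beside 2.31% higher and 6.03% lower of 779 miRNAs. Among miRNAs bright on either array the shares were 4.72% and 13.6%, with 0 of 3 bright arms in either. miR-146b-5p was lower in aged skin, with a ratio of 0.683 (spots 0.664 and 0.703) that stayed below 1 in all 14 alternatives, between 0.192 and 0.711. miR-146a-5p had a ratio of 1.10 (1.03 and 1.18), but it was between 0.410 and 0.568 without normalization or when scaled to the median, the spike controls or the 5S probes. The direction for miR-146a-5p is therefore not settled. The quotient of miR-146b-5p over miR-146a-5p was 0.620 (0.646 and 0.594), between 0.468 and 0.634 over 12 alternatives, so relative to its relative miR-146b-5p was lower in aged than in young skin under every setting.

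miR-155-5p had an aged over young ratio of 0.757 (spots 0.767 and 0.747), below 1 in 13 of 14 alternatives and 1.61 when scaled to the 75th percentile. Of 210 bright miRNAs, 175 had a larger ratio than miR-155-5p and 178 a larger ratio than miR-146b-5p, so both lay in the lower part. The median ratio of these bright miRNAs was 1.16. For the dim miR-155-5p the place says little, as 159 were also above miR-155-3p, which was detected on neither array. miR-155-5p is not itself 1 of the 210, as it was not bright at aged D0. Leukocyte markers were lower in aged skin as well, with 3 of 5 at least 2-fold lower, 0 higher and a median ratio of 0.268. Their summed scanned intensity was 7267 in young and 1201 in aged unwounded skin, and miR-142a-3p was the marker not detected at aged D0. These sums are not normalized and include differences in brightness between arrays. The 2 markers not past 2-fold, miR-150-5p and miR-342-3p, had scanned ratios of 0.232 and 0.249 but 0.774 and 0.855 after normalization. The part of leukocytes in the ratios of miR-155-5p and miR-146b-5p was not tested. miR-132-3p was higher in aged skin, with a ratio of 1.68 (1.76 and 1.61) that was above 1 in all 14 alternatives, between 1.06 with scaling to the median and 3.93 with the 75th percentile, and it was below the bright level in both. For miR-212-3p, not detected in young skin, the bound was at least 1.06-fold higher in unwounded aged skin.

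miR-146b-5p gained on miR-146a-5p from aged D0 to D3 and was lower against it in aged D0 than in young D0. Both comparisons use the same aged D0 array, so they are not separate observations. The D5 and D7 arrays, set against the same aged D0, did not show a gain of the size of D3. Their quotients were 0.870 and 1.04, and at most 1.23 and 1.38 under the 12 alternatives.

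In the authors' processed values, which were normalized in their own way, miR-155-5p read 49.8 for aged D0, 143, 158 and 188 for the wounds in order of time, and 89.9 for young skin. miR-146a-5p was 1869, 1175, 1388, 1795 and 1624, and miR-146b-5p was 630, 1566, 455, 765 and 1114. Both rank the arrays as the normalized values do, except that D7 and aged D0 change places for miR-146b-5p. The quotient of the pair on D3 was 3.96 on these values, and 0.973 on D5 and 1.27 on D7. miR-132-3p was 88.2, 117, 99.8, 65.8 and 29.8. The processed values thus also put miR-155-5p above aged D0 in every wound and separate the miR-146 pair on D3.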

How the data were processed

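Total RNA of skin was labelled with Cy3 and hybridised to single-colour miRNA arrays by a service provider, per the labels. The authors deposited scanner files with a linear, unnormalized median intensity per spot and empty background columns, and a table of processed intensity values whose normalization is not given in the sources used here. Each of 1900 miRNAs has 2 spots. Spots were corrected with limma's normexp method (offset 50), put on the log2 scale, quantile normalized across all 5 arrays, and averaged. When a miRNA was not detected on 1 of the arrays compared, a bound is given. R 4.3.3, limma 3.58.1, Python 3.11.15, pandas 2.3.3, numpy 2.4.6 and matplotlib 3.10.9 were used, and the steps were tested on simulated data.

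Samples were grouped by their labels, with 1 array a condition, and their number limits the precision. Each wound was divided by aged D0, and aged D0 by young D0. The miRNAs named are the 10 arms, any miRNA with their seeds, the lists of Toll-like receptor, leukocyte, skin epithelium, skeletal muscle and red blood cell miRNAs, and for each arm detected on all arrays the 3 miRNAs nearest in pattern. Members and lists were chosen with earlier results of these data known. Alternatives were normexp offsets of 16 and 100, no background correction, the empty spots' mean subtracted (floor of 1), no normalization, cyclic loess, quantile normalization of the 2 arrays compared, scaling to the 75th percentile, the median, 11 spike controls or 5 probes for 5S ribosomal RNA, the processed values (floor of 1), either spot alone, other detection filters, and thresholds of 1.5-fold and 3-fold. Their use on the lists and on quotients of ratios was added after seeing the data. Wounds of young mice were not analysed here.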

Additional observations from a re-analysis of the deposited data

How the results depend on the processing

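No paired analysis was possible because no condition had over 1 array. The number of arrays and the low signal of miR-155-5p, miR-132-3p and miR-212-3p over background limit every ratio given. Of the values compared under the alternatives, 332 ratios moved by less than the spread between repeat spots, 200 moved further on the same side of 1 or with spots on both sides, and 28 changed side. The D3 ratios of miR-146a-5p and miR-146b-5p, their D3 quotient and the D5 and D7 ratios of miR-155-5p kept their side of 1 under all alternatives. For the quotient, no normalization and the scalings of whole arrays are the same by construction.

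On D3 the ratio of miR-155-5p was 0.984 under scaling to the spike controls, and that of miR-132-3p was 0.993 under scaling to the 75th percentile and 0.707 to the spike controls. On D5 the ratio of miR-212-3p was 0.830 without normalization, 0.909 with the 75th percentile, 0.622 with the spike controls and 0.800 with the 5S probes. On D7 the ratio of miR-132-3p was 1.07 without normalization, 1.12 after median scaling, 1.09 with the spike controls and 1.27 with the 5S probes, and that of miR-212-3p was 1.03 with the 5S probes. In aged over young skin miR-155-5p was at 1.61 with the 75th percentile, and miR-146a-5p was at 0.455 without normalization, 0.410 after median scaling, 0.568 with the spike controls and 0.458 with the 5S probes. The quotient of miR-146b-5p over miR-146a-5p on D5 was 1.23 without normalization or with any scaling of whole arrays and 1.05 with cyclic loess, and that of miR-155-5p over miR-146a-5p in aged over young skin was 1.06 without normalization or with such scaling. The cause was not tested.

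On D3, with 0 arms past 2-fold as given above, 1 passed as higher with an offset of 16 or cyclic loess. Without normalization, with the 75th percentile or with the 5S probes, 1 passed as lower. The count was 2 with the empty spots subtracted (1 higher and 1 lower) or the median (both higher), and 3 at 1.5-fold (2 higher and 1 lower). It was 4 (all lower) with the spike controls and 6 in the processed values (4 higher and 2 lower). Arms at or near background made up 3 of those 4 (miR-212-3p, miR-132-5p and miR-212-5p) and 4 of those 6 (the same 3 and miR-146b-3p). On D5, in place of 1, the count was 0 with an offset of 100, no background correction, no normalization or the 75th percentile. It was also 0 with cyclic loess, quantile normalization of the 2 arrays, the first spot alone or 3-fold. With the 5S probes the count stayed at 1, but that arm was miR-146a-5p, which was lower, and miR-155-5p did not pass 2-fold. The count was 2 with the spike controls (both lower), the processed values (miR-155-5p and the background-level miR-132-5p) or 1.5-fold (1 higher and 1 lower). On D7, in place of 1, it was 0 with an offset of 100, the 75th percentile, cyclic loess, quantile normalization of the 2 arrays or 3-fold. It was 2 with the empty spots subtracted (1 higher and 1 lower) and 4 in the processed values (2 higher and 2 lower). Of those 4, 3 (miR-212-3p, miR-146b-3p and miR-212-5p) were at or near background. For aged over young skin, in place of 0, it was 1 (higher) with an offset of 16 or at 1.5-fold and 1 (lower) with the spike controls. It was 2 (both higher) with the empty spots subtracted, the 75th percentile or the processed values. It was 3 (all lower) without normalization or with the median or the 5S probes.

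The share of all detected miRNAs past 2-fold on D3 was 6.09%, and 40.9% with the empty spots subtracted, 51.7% with the spike controls, 48.6% in the processed values, 16.8% over miRNAs detected on both arrays, 30.4% over bright ones, 12.4% at 1.5-fold and 2.65% at 3-fold. On D5 it was 5.28%, and 8.80% with an offset of 16, 38.8% with the empty spots subtracted, 12.7% with the spike controls, 35.8% in the processed values, 3.00% without a detection filter, 8.78% over miRNAs detected on both arrays, 18.9% over bright ones, 15.6% at 1.5-fold and 1.67% at 3-fold. On D7 it was 4.35%, and 7.67% with an offset of 16, 2.81% with an offset of 100, 42.2% with the empty spots subtracted, 8.56% with the 75th percentile, 7.86% with the 5S probes, 52.8% in the processed values, 9.43% over miRNAs detected on both arrays, 21.0% over bright ones, 12.3% at 1.5-fold and 1.09% at 3-fold. For aged over young skin it was 8.34%, and 5.52% with an offset of 100, 46.7% with the empty spots subtracted, 27.2% without normalization, 66.1% with the 75th percentile, 33.0% with the median, 17.2% with the spike controls, 27.0% with the 5S probes, 38.8% in the processed values, 3.42% without a detection filter, 18.3% over bright ones, 20.2% at 1.5-fold and 2.57% at 3-fold. Of the miRNAs past 2-fold, 56.5% were higher on D3 and between 2.84% and 77.2% under other normalizations. On D5 this was 54.4% and between 3.65% and 66.7%, on D7 58.8% and between 15.7% and 97.6%, and in aged over young skin 27.7% and between 0.389% and 95.7%.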
